A study of Mus musculus with 2 samples.

Results

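Members of the interleukin 1 (IL-1) family and of the inflammasome were followed in immune cells of the mouse cochlea, the hearing organ of the inner ear, after noise exposure. The set held 9 of the 31053 genes measured and was listed by name: Il1b, Il1a, Il1f9, Il18, Il1rn, Il1r2, Nlrp3, Casp1 and Casp4. Cochleae of 6 mice per condition were pooled and digested, and living cells bearing CD45, the surface marker of blood-derived cells, were sorted for droplet single-cell RNA sequencing. The conditions were a control called sham in the protocol and untreated in the design text, and days 3, 7 and 14 after noise. Strain, age, sex and sound level are not stated in the labels. Each pool carried its own hashtag antibody, and a cell was assigned to a pool where its leading hashtag had at least 10 UMIs (unique molecular identifiers, each standing for 1 captured RNA molecule) and at least 80% of all hashtag UMIs. Each condition is therefore a single pool of several animals, and no test between conditions was possible. Ranges in parentheses are 95% intervals for counting error, which leave out the spread between animals and the spread between cells.

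Of 1556 barcodes, 1285 were kept: 341 from sham, 551 from day 3, 216 from day 7 and 177 from day 14. The typical cell had 6528, 8378, 7403.5 and 7190 UMIs (pool medians, sham to day 14), with 3.96%, 2.41%, 3.36% and 3.11% of them mitochondrial. The part of depth and of mitochondrial share in the values below was not tested. Cells were sorted into 12 lineages by fixed marker genes, none of which is a member of the set, and 1165 cells received a name. Names rest on RNA markers alone. All markers of a lineage were detected and at least 2-fold higher in it, apart from 1 of 7 markers each in B cells and NK cells. Since the same markers assigned the cells, this describes the sorting and does not test the names. Mature neutrophils numbered 58 in sham and 149, 57 and 50 on days 3, 7 and 14, which was 17.0%, 27.0%, 26.4% and 28.2% of the cells of those pools. Immature neutrophils, myeloid progenitors and B cell precursors, which are known from bone marrow, were also present, with 201, 32 and 209 cells.

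IL-1β and IL-1α, encoded by Il1b and Il1a, bind the same receptor and set off inflammation. IL-1β and IL-18 are made as inactive precursors that caspase-1 cuts, and caspase-1 is itself activated on an inflammasome, a complex built by a sensor such as NLRP3. In mice, Casp4 encodes caspase-11, which senses bacterial lipopolysaccharide inside the cell. The pathway has built-in brakes: Il1rn encodes the IL-1 receptor antagonist, which occupies the receptor without signalling, and Il1r2 encodes a decoy receptor that captures IL-1 and cannot signal. Il1f9 encodes IL-36γ, a relative of IL-1 that uses its own receptor. Neutrophils and macrophages are both known sources of IL-1β in inflamed tissue.

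Some of the genes are neighbours in the genome. On GRCm38 with the GENCODE vM21 annotation, Il1a (chr2:129299610-129309972) and Il1b (chr2:129364570-129371139) are neighbours on the minus strand, and Casp1 (chr9:5298517-5307265) and Casp4 (chr9:5308828-5336783) are neighbours on the plus strand. Il1f9 and Il1rn lie far from Il1b on chromosome 2 (from bases 24186476 and 24336853), and Il18 lies far from Casp1 on chromosome 9 (from base 50554827). Nlrp3 lies on chromosome 11 and Il1r2 on chromosome 1. Because most Il1b UMIs lay in mature neutrophils and most Il1a UMIs in macrophages although the genes are neighbours, the 250 bases before their start sites are shown, from RefSeq on GRCm38.p6 (minus strand, 5′ to 3′; chr2:129371140-129371389 for Il1b and chr2:129309973-129310222 for Il1a). The stretch before Casp4 (plus strand, chr9:5308599-5308848) is shown as well, because Casp4 was, with Il1a and Il18, highest in macrophages. The stretch before Il18 is not shown. Capitals mark matches, on either strand, to 5 searched motifs: TATAAA (the TATA box), TGANTCA (AP-1), TTNCNNAA (C/EBP), GAGGAA (the PU.1 core) and, for NF-kB, GGG followed after any 2 bases by TTTCC.
Il1b: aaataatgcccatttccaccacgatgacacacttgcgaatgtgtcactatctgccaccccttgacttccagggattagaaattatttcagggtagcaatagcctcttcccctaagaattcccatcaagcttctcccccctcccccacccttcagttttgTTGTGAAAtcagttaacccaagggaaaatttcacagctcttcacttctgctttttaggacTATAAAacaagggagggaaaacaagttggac
Il1a: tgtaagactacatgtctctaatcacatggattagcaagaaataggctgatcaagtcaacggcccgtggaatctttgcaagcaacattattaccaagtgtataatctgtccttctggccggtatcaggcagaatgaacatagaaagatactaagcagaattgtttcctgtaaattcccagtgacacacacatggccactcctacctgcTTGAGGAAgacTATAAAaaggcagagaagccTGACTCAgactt
Casp4: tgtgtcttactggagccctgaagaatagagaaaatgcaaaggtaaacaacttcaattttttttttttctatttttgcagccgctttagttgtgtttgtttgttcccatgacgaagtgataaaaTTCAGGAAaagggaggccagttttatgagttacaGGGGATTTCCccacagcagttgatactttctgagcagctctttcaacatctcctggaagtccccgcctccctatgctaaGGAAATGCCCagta
Il1b and Il1a both hold TATAAA, whose first base lies 31 and 32 bases before the start, a motif found in 12.4% of the 32851 promoter stretches of this length. Il1b holds a C/EBP match 91 bases before the start, and Il1a a C/EBP match 43 bases before it that overlaps a PU.1 match, and an AP-1 match at 12 bases. The NF-kB letters, present in 1.41% of all stretches, occur in Casp4 at 93 and 14 bases before the start and not in the shown stretches of Il1b and Il1a. Of all 13 stretches of the members, 3 hold these letters, from 2 genes. The other gene is Il1rn, with a match 51 bases before a start site, and Il18 has no match. The shares for the other motifs were 36.8% for C/EBP, 23.3% for PU.1 and 6.75% for AP-1. These matches describe the letters and say nothing of binding.

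Where did the transcripts come from? Il1b was overwhelmingly a transcript of mature neutrophils, which held 6308 of the 6992 Il1b UMIs in named cells (90.2%). Il1f9, Il1r2, Nlrp3 and Il1rn followed the same lineage, with 84.3%, 74.9%, 68.4% and 65.8% of their UMIs in it. Il1a and Il18 did not: Il1a was found almost entirely in macrophages, and the highest Il18 levels were in macrophages and dendritic cells. Casp1 and Casp4 were spread over nearly every lineage. Set against all other named cells, mature neutrophils had 5 of the 9 members at least 2-fold higher (background 9.62% of 11213 genes). Il1a had 0 UMIs against 20, a ratio whose interval (0 to 1.12) includes 1, so a lower level was not resolved. No other member was at least 2-fold lower, against 54.9% of all genes, where a count of 0 was set to 3 UMIs.

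**Figure D1:**
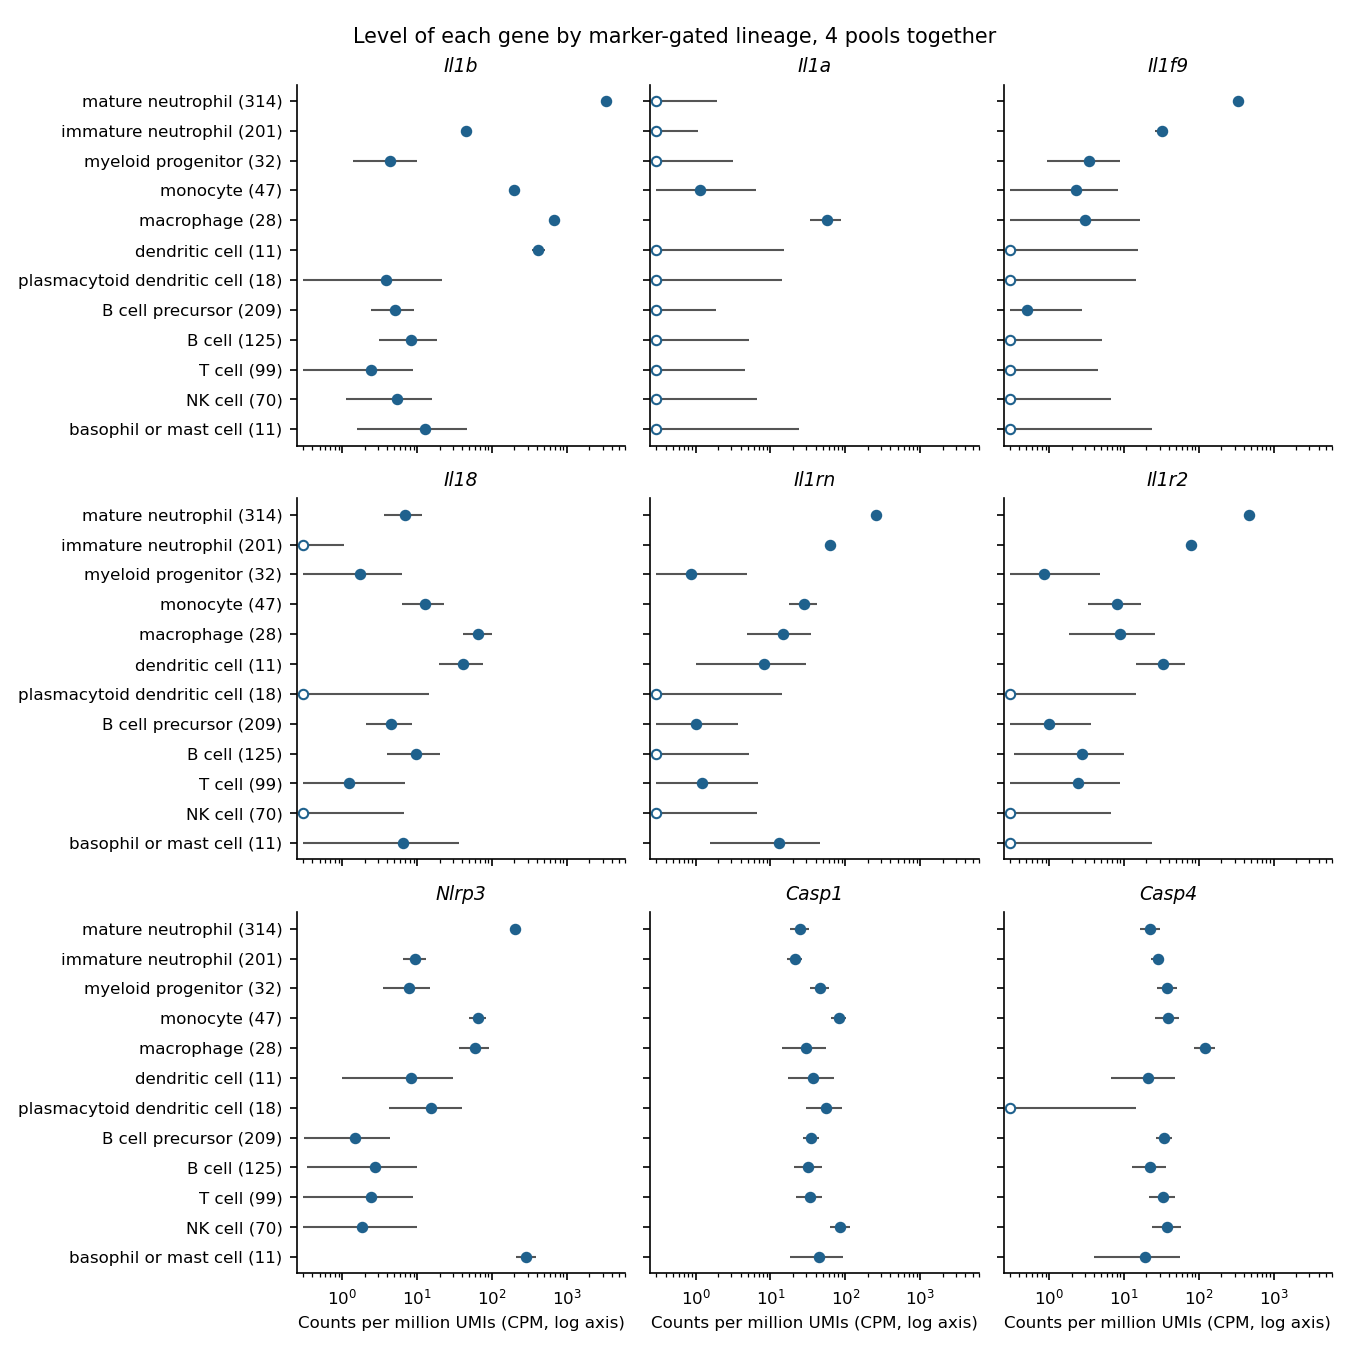
Level of each gene in counts per 1000000 UMIs (CPM, log axis) in 12 lineages with the 4 pools together, with the number of cells in parentheses; points are levels, lines exact Poisson 95% intervals, and open points mark 0 UMIs. Il1b reached 3315 CPM in mature neutrophils, Il1a was highest in macrophages (56.7 CPM), and Casp1 lay between 21.1 and 85.5 CPM in every lineage.

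Among the ligands, Il1b stood at 3315 counts per 1000000 UMIs (CPM) in mature neutrophils (3233 to 3398), 671 in macrophages (586 to 765), 418 in dendritic cells (341 to 508), 199 in monocytes (170 to 231) and 45.6 in immature neutrophils (38.8 to 53.3). The intervals of these 5 neighbours in the order did not overlap. The immature level rested on 3 of 201 cells, which held 133 of the 158 UMIs, and without them it was 7.42 CPM (4.80 to 10.96). Of 11 dendritic cells, 1 carried 44.6% of that lineage's Il1b. B cell precursors, B cells, T cells and NK cells had 2.47 to 8.38 CPM, with an Il1b UMI in 2.02% to 4.80% of cells, at median depths of 5155 to 7202 UMIs against 5362.5 in mature neutrophils. This is the level found in cells that should lack the gene. The progenitors (4.31 CPM, with 80% of 5 UMIs in 1 cell) and the immature neutrophils without those 3 cells were within that range.

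Il1a had 20 UMIs in all named cells, and 19 of them lay in 7 of the 28 macrophages (56.7 CPM, 34.1 to 88.5). The other UMI was in a monocyte. Il1b was found in 3 of these 7 macrophages and in that monocyte. Mature neutrophils held 0 Il1a UMIs in 314 cells, which allows at most 1.94 CPM, although the same cells were the richest in Il1b. By pool, the macrophages held 4 Il1a UMIs in 6 sham cells, 0 in 10 day 3 cells, 12 in 8 day 7 cells and 3 in 4 day 14 cells. Il1b in the same macrophages was 22 UMIs in sham, 19 of them in 1 cell, 122 on day 3, 65 on day 7 and 16 on day 14. The day 3 macrophages, with 0 Il1a UMIs, were the deepest (median 19380.5 UMIs), and 9 of the 10 held Il1b. These numbers of cells are too small to order the pools.

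Il1f9 was a neutrophil transcript with little signal elsewhere. Mature neutrophils had 336 CPM (311 to 363), immature neutrophils 32.1 (26.4 to 38.6), and the rest was 4 UMIs in progenitors, 2 in monocytes and 1 each in macrophages and B cell precursors. Il18 was sparse everywhere, with 76 UMIs in named cells and 18 more in cells without a name. Its levels were 65.6 CPM in macrophages (41.1 to 99.3), 41.4 in dendritic cells (19.9 to 76.2), 12.8 in monocytes and 6.83 in mature neutrophils, and the intervals of macrophages and dendritic cells overlapped. Immature neutrophils held 0 Il18 UMIs, which allows at most 1.07 CPM.

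The brakes were transcribed in the same lineage as Il1b and reached back further along it. Il1rn had 256 CPM in mature neutrophils (234 to 280), 62.4 in immature neutrophils (54.3 to 71.3) and 27.9 in monocytes (17.9 to 41.5). At full depth a UMI of it was found in 52.7% of immature neutrophils. With each cell reduced at random to 2000 UMIs, 26 of 194 immature and 117 of 293 mature neutrophils held Il1rn. In macrophages, 5 Il1rn UMIs were found, all in 1 of 28 cells. Il1r2 had 467 CPM in mature neutrophils (437 to 499), 78.8 in immature neutrophils (69.8 to 88.8) and 33.1 in dendritic cells (14.3 to 65.3, 8 UMIs). Monocytes and macrophages had only 7 and 3 Il1r2 UMIs.

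The sensor and the caspases were distributed differently from each other. Nlrp3 was highest in basophils or mast cells (290 CPM, 211 to 387, in 8 of 11 cells) and mature neutrophils (202 CPM, 182 to 223), whose intervals overlapped, followed by monocytes (65.1) and macrophages (59.6). Casp1 was highest in NK cells (85.5 CPM, 62.8 to 114) and monocytes (81.4, 63.4 to 103) and low in mature neutrophils (24.7, 18.1 to 32.8) and immature neutrophils (21.1, 16.5 to 26.5). Casp4 was highest in macrophages (119 CPM, 85.2 to 162, with 10 of 40 UMIs in 1 cell), and mature neutrophils had 22.6 (16.4 to 30.4). Casp1 and Casp4 in mature neutrophils stood at 0.647 (0.468 to 0.877) and 0.671 (0.477 to 0.922) times the level of the other named cells. Of the 522 Casp1 UMIs in kept cells, 73 were in cells without a lineage name, so these sources are incomplete.

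How did the genes change along the neutrophil line? Mature neutrophils were split by the 8 markers of immature neutrophils: Camp, Ngp, Ltf, Chil3, Fcnb, Cebpe, Ly6g and Lcn2. Not all of these encode granule proteins, since Cebpe encodes a transcription factor and Ly6g a surface protein. The 95 cells with at least 2 such markers on are called granule-bearing here, and the other 219 granule-low. From progenitors through immature and granule-bearing to granule-low cells, Il1b stood at 4.31, 45.6, 451 and 5817 CPM. The immature value was 7.42 CPM without the 3 cells named above, so the first step was at the level of cells that should lack the gene. Nlrp3 was likewise late, with 7.75, 9.53, 73.2 and 314 CPM. Il1f9, Il1rn and Il1r2 were already substantial in granule-bearing cells: Il1f9 had 3.44, 32.1, 325 and 347 CPM, Il1rn 0.861, 62.4, 223 and 285 CPM, and Il1r2 0.861, 78.8, 284 and 627 CPM. Casp1 (45.6, 21.1, 28.2 and 21.7 CPM) and Casp4 (37.9, 28.3, 20.3 and 24.6 CPM) showed no such order. Total RNA shrank along the same line, with medians of 37242.5, 15724, 9508 and 4285 UMIs per cell, so CPM gives a share of the cell's RNA and not an amount. Counted per cell, Il1b was still highest in granule-low cells (0.156, 0.786, 4.21 and 27.0 UMIs on average, with 0.126 in immature neutrophils without those 3 cells). So were Nlrp3 (0.281, 0.164, 0.684 and 1.46) and Il1r2 (0.0312, 1.36, 2.65 and 2.91). Il1f9 was highest in granule-bearing cells (0.125, 0.552, 3.03 and 1.61) and so was Il1rn (0.0312, 1.07, 2.08 and 1.32). Casp1 (1.66, 0.363, 0.263 and 0.100) and Casp4 (1.375, 0.488, 0.189 and 0.114) fell per cell at each stage.

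**Figure D2:**
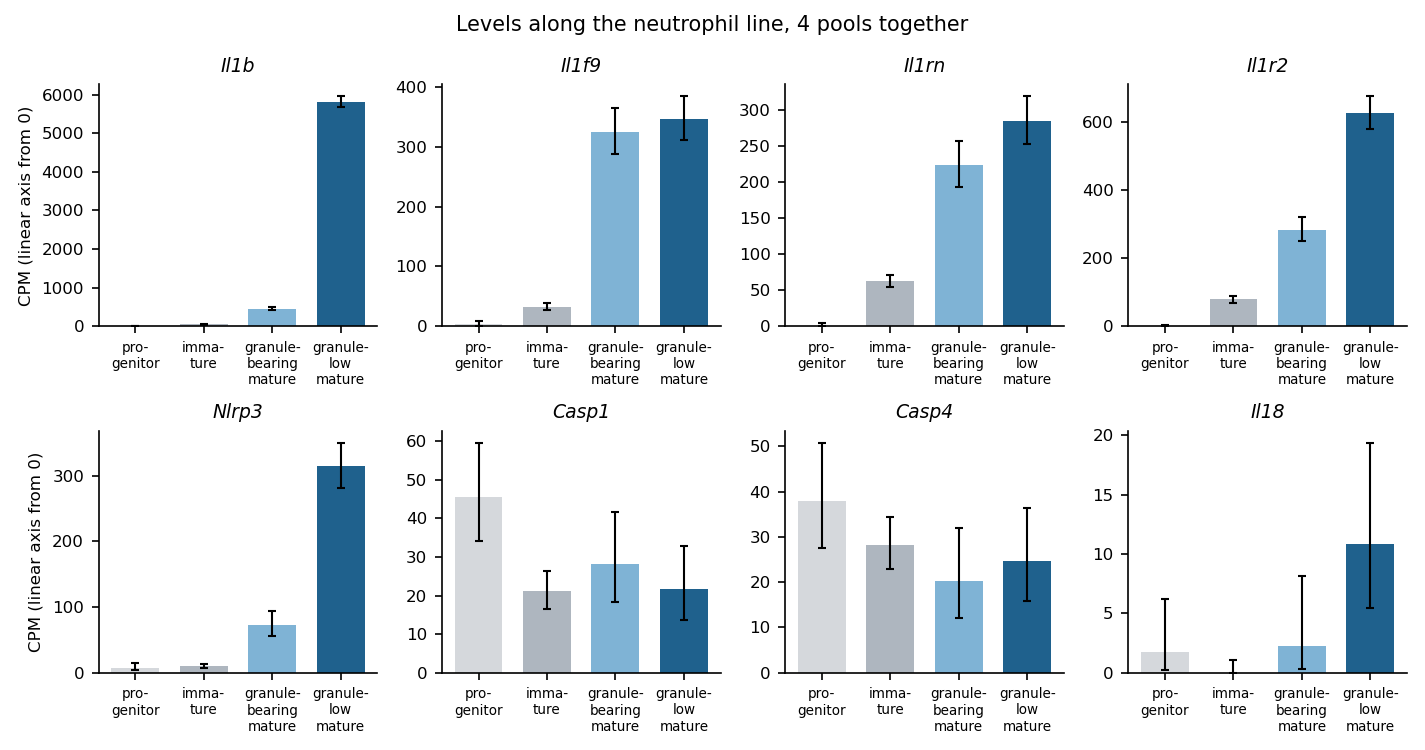
Levels (CPM, linear axes from 0 that differ between panels) of 8 genes in progenitors, immature neutrophils, granule-bearing and granule-low mature neutrophils, 4 pools together; bars are levels and lines exact Poisson 95% intervals. Il1b and Nlrp3 stand far higher in granule-low cells (5817 and 314 CPM) than before, Il1f9 and Il1rn are already high in granule-bearing cells (325 and 223 CPM), and Casp1 and Casp4 show no such order.

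Within mature neutrophils, Il1b was unevenly held. The median cell had 12 Il1b UMIs, the highest 441, and 72 of 314 cells had none. The 32 cells with the most Il1b carried 39.4% of it, and 47 cells (15.0%) carried at least 50% of it. By pool, lowest, median and highest Il1b UMIs per cell were 0, 8 and 72 in sham, 0, 16 and 441 on day 3, 0, 11 and 81 on day 7, and 0, 9.5 and 116 on day 14. The ranges overlapped across their whole lower part, and the highest cells were in the noise pools.

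Did the mature neutrophils of the noise pools differ from those of sham? Il1b was the single member past 1.5-fold on day 3, with 3870 CPM on day 3 against 2394 CPM in sham, a ratio of 1.62 (1.499 to 1.745). One day 3 cell carried 12.4% of that pool's Il1b, and the ratio was 1.55 without the highest cell of each pool. On day 3, 1 of the 7 measured members, those whose pools together reached 20 UMIs, was at least 1.5-fold higher and 0 were lower, against 16.9% and 8.88% of all 4098 genes so measured, a share near the background. On day 7, Il1b stood at 2908 CPM against 2394 CPM in sham (1.21, 1.11 to 1.33), and 0 of 6 members passed 1.5-fold either way (background 10.8% higher and 10.8% lower). On day 14, Il1b stood at 3134 CPM against 2394 CPM in sham (1.31, 1.19 to 1.44), and 0 of 5 members passed (background 14.2% higher and 12.7% lower). The 3 ratios share the sham pool.

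Il1b differed widely between the granule stages, and sham had the lowest share of granule-low cells. The granule-low share was 73.2% (65.3 to 80.1), 71.9% (58.5 to 83.0) and 72.0% (57.5 to 83.8) at days 3, 7 and 14, against 56.9% (43.2 to 69.8) in sham, with overlapping intervals. Within granule-low cells, Il1b had 6541 CPM on day 3 against 5280 CPM in sham (1.24, 1.14 to 1.34), 4827 on day 7 against 5280 in sham (0.914, 0.828 to 1.01) and 5123 on day 14 against 5280 in sham (0.970, 0.878 to 1.07). One cell held 12.9% of the day 3 granule-low Il1b. The median granule-low cell held 25 Il1b UMIs on day 3 and 21 in sham, at median depths of 4611 and 3771 UMIs. Within granule-bearing cells Il1b had 157 UMIs on day 3 against 112 in sham (a CPM ratio of 0.745, 0.581 to 0.958). With both stages given the same weights in both pools, the Il1b ratios were 1.20, 0.901 and 0.979 on days 3, 7 and 14. These weighted ratios have no interval, and that of day 3 was under 1.5-fold. The part of stage mix in the Il1b ratios of mature neutrophils was not tested.

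**Figure D3:**
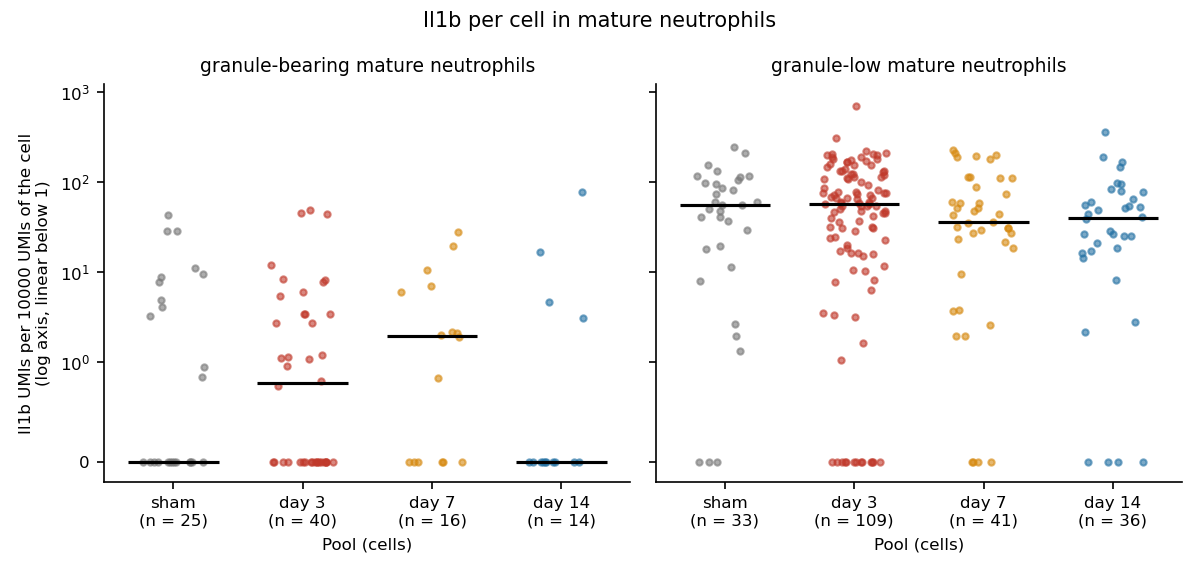
Il1b UMIs per 10000 UMIs of each mature neutrophil (log axis, linear below 1) by pool, for granule-bearing (left) and granule-low cells (right); points are cells and black lines medians. Granule-low cells hold far more Il1b in every pool, and they make up 56.9% of mature neutrophils in sham and 71.9% to 73.2% after noise.

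The decoy receptor Il1r2 stood below sham on day 7 in mature neutrophils, while its day 14 interval included 1. It had 362 CPM in mature neutrophils on day 7 against 508 CPM in sham (0.711, 0.559 to 0.902) and 413 CPM on day 14 against 508 CPM in sham (0.812, 0.641 to 1.03), while on day 3 Il1r2 had 507 CPM against 508 CPM in sham (0.997, 0.837 to 1.19). In granule-low cells Il1r2 stood at 477 CPM on day 7 against 822 CPM in sham (0.580, 0.434 to 0.773) and at 492 CPM on day 14 against 822 CPM in sham (0.599, 0.446 to 0.802). It was there the single member of 5 at least 1.5-fold lower on each of these days (background 20.2% and 19.4% of genes), a share at the background, and 0 of 5 were higher (background 10.4% and 14%). On day 3, 0 of 5 members passed 1.5-fold in granule-low cells (background 14% higher and 16.3% lower). Cells with an Il1r2 UMI were 70.7% of granule-low cells on day 7 and 72.2% on day 14, against 87.9% in sham, at median depths of 4230 and 4472 UMIs against 3771. In granule-bearing cells Il1r2 was at 0.689 times the sham level on day 7 (0.431 to 1.08) and 1.01 times on day 14 (0.669 to 1.52).

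For 3 other members no difference from sham was resolved. Il1rn in mature neutrophils had ratios of 1.00 (0.783 to 1.29), 0.925 (0.677 to 1.26) and 0.917 (0.665 to 1.26) on days 3, 7 and 14. Il1f9 had ratios of 0.856 (0.690 to 1.07), 0.969 (0.743 to 1.26) and 1.20 (0.932 to 1.55). Nlrp3 had ratios of 1.26 (0.948 to 1.69), 0.814 (0.550 to 1.20) and 1.07 (0.735 to 1.54). Each of these intervals includes 1. Casp1 and Casp4 had 5 to 23 UMIs per pool, too few to tell levels apart. Il18 had 10, 1 and 2 UMIs on days 3, 7 and 14 and 0 in sham.

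**Figure D4:**
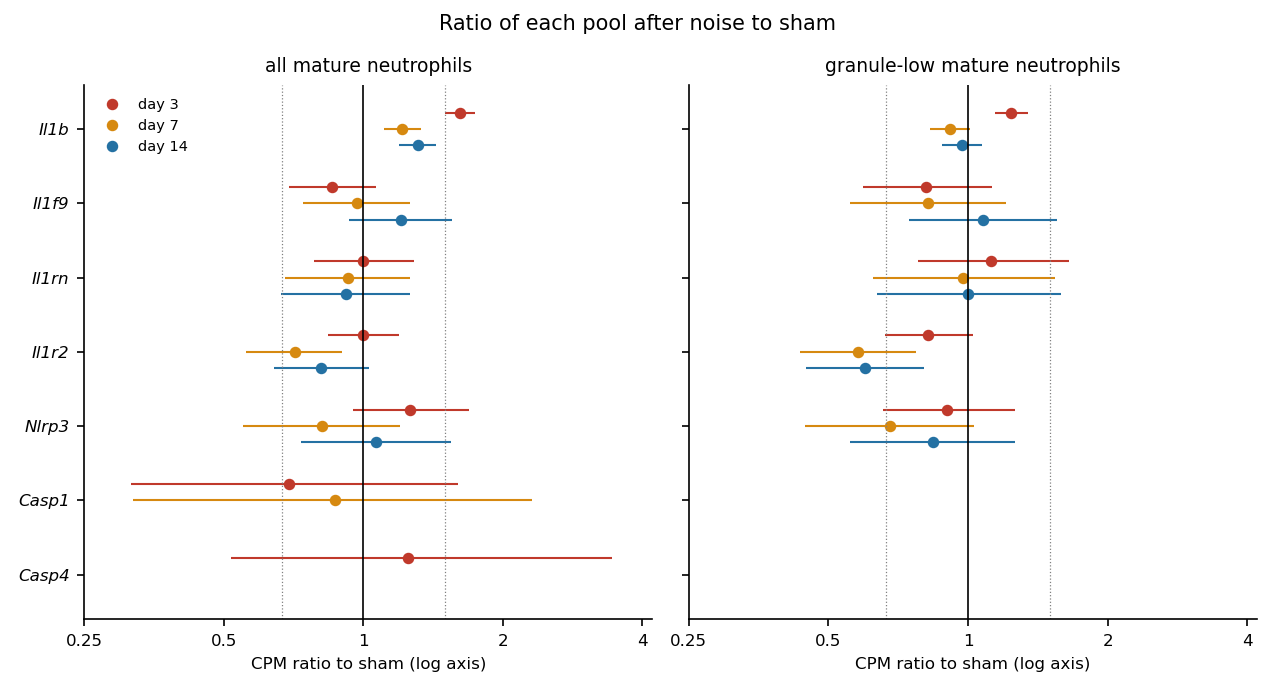
Ratio of the CPM level on each day after noise to sham (log axis) for members whose pools together reached 20 UMIs, in all mature neutrophils (left) and in granule-low cells (right); lines are exact conditional 95% intervals and dotted lines mark 1.5-fold. In granule-low cells the Il1b ratios are 1.24, 0.914 and 0.970, and Il1r2 lies lowest on days 7 and 14 (0.580 and 0.599).

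Immature neutrophils held Il1b mainly on day 3. There were 155 Il1b UMIs in 122 day 3 cells, 0 in 22 day 7 cells and 2 in 27 day 14 cells, against 1 in 30 sham cells. The day 3 UMIs were in 15 cells, and 3 of these held 133 of them (85.8%), with 3, 6 and 8 of the 10 mature markers on beside 7 or 8 of the 8 immature ones. Without these 3 cells the day 3 level was 11.1 CPM. Barcodes that hold several cells of the same pool could not be recognised by hashtag. Il1rn, the antagonist, had 68.2 CPM on day 3 against 41.4 CPM in sham (1.65, 1.05 to 2.71) and 101 CPM on day 7 against 41.4 CPM in sham (2.43, 1.36 to 4.41), but 38.8 CPM on day 14 against 41.4 CPM in sham (0.938, 0.491 to 1.79). In all, 3 of 7 measured members were at least 1.5-fold higher on day 3 (background 16.2%), namely Il1b, Il1f9 (1.68, 0.911 to 3.39) and Il1rn, and 0 were lower (9.57%). On day 7, 2 of 5, Il1rn and Il1f9 (1.58, 0.633 to 3.92), were higher (16.7%). Casp1 (0.610, 0.197 to 1.62) and Casp4 (0.493, 0.163 to 1.26), with 6 UMIs each on day 7, were the 2 of 5 lower (22%). Of these ratios, those of Il1f9 on both days and of the caspases on day 7 have intervals that include 1. On day 14, 0 of 5 were higher (19%) and the same 2 caspases lower (10.7%): Casp1 had 4 UMIs against 17 in sham (0.231, 0.0566 to 0.709) and Casp4 8 against 21 in sham (0.375, 0.143 to 0.880).

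Monocytes were too few for a comparison on days 7 and 14, with 4 cells each. On day 3, 24 monocytes had 363 CPM of Il1b, in 14 cells, against 68.4 CPM in 15 sham monocytes, in 5 cells. The highest cell held 32 of 150 Il1b UMIs on day 3 and 8 of 19 in sham. Monocyte Il1rn stood at 21 UMIs on day 3, with 7 of them in 1 cell, against 1 UMI in sham. The difference between these pools was not tested.

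What was the balance between ligand and brakes? The ratio of Il1rn or Il1r2 UMIs to Il1b UMIs compares molecules caught at their 3′ ends, so it does not depend on transcript length but may depend on how well each gene is caught. It is read here only between cells. The ratio was highest in immature neutrophils and lowest in granule-low cells. Per 100 Il1b UMIs, immature neutrophils had 137 Il1rn (111 to 169) and 173 Il1r2 UMIs (142 to 212), granule-bearing cells 49.5 (41.5 to 58.8) and 63.0 (53.6 to 73.9), and granule-low cells 4.89 (4.33 to 5.51) and 10.8 (9.92 to 11.7). Without the 3 immature cells rich in Il1b, the immature values were 836 (551 to 1322) and 1052 (697 to 1655), from 25 Il1b UMIs. Macrophages had 2.22 Il1rn (0.715 to 5.26) and 1.33 Il1r2 UMIs (0.273 to 3.95) per 100 Il1b UMIs, and monocytes 14.0 (8.75 to 21.6) and 4.09 (1.62 to 8.62).

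By pool, mature neutrophils had 11.0 Il1rn UMIs per 100 Il1b UMIs for sham (8.75 to 13.6), then 6.79 at day 3 (5.94 to 7.74), 8.36 at day 7 (6.57 to 10.5) and 7.69 at day 14 (5.98 to 9.77). For Il1r2 the values were 21.2 for sham (18.0 to 24.999), then 13.1 at day 3 (11.9 to 14.4), 12.4 at day 7 (10.2 to 15.1) and 13.2 at day 14 (10.8 to 15.9). Sham was highest for both brakes in all mature neutrophils together. Within granule-low cells the Il1rn values were 5.10 in sham and 4.61, 5.44 and 5.26 on days 3, 7 and 14, with overlapping intervals. There the Il1r2 values remained apart, at 15.6 for sham (12.7 to 19.0), then 10.3 at day 3 (9.20 to 11.5), 9.88 at day 7 (7.85 to 12.3) and 9.61 at day 14 (7.59 to 12.03). In granule-bearing cells the Il1r2 values overlapped, at 58.0 for sham (42.1 to 79.5), then 73.9 at day 3 (57.6 to 94.5), 53.6 at day 7 (33.2 to 84.9) and 54.7 at day 14 (36.4 to 81.0), with day 3 above sham. Over all named cells the pools had 12.98, 10.1, 11.4 and 9.72 Il1rn UMIs per 100 Il1b UMIs, in the order sham, day 3, day 7 and day 14.

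Which members were found in the same cell? To take out depth, each mature neutrophil was thinned to 2000 UMIs, which left out 21 shallower cells and kept 293. Cells were grouped as having 0, 1 to 5, or 6 or more Il1b UMIs (93, 64 and 136 cells). An Nlrp3 UMI was found in 20.4% (12.8 to 30.1), 28.1% (17.6 to 40.8) and 39.0% (30.7 to 47.7) of these groups. An Il1r2 UMI was found in 50.5% (40.0 to 61.1), 51.6% (38.7 to 64.2) and 64.0% (55.3 to 72.0). The outer groups' intervals did not overlap for the sensor Nlrp3 and did for the decoy receptor. Il1b, Nlrp3 and Il1r2 all had higher CPM in granule-low than in granule-bearing cells. The groups were not split by stage, and the part of stage in these shares was not tested. The order of the 3 groups was not the same in every pool. Nlrp3 was found in 28.9%, 48.0% and 35.2% of the groups on day 3, the pool with the most cells (141), against 21.1%, 14.3% and 45.5% in sham. On day 7 the shares were 7.14%, 22.2% and 40.9%, and on day 14 they were 6.67%, 0% and 42.9%, from 7 to 22 cells a group. Il1rn was found in 38.7%, 34.4% and 43.4%, Il1f9 in 40.9%, 53.1% and 40.4%, and Casp1 in 4.30%, 4.69% and 4.41%, with no such order. Spearman's rho with Il1b over the 293 cells was 0.23 for Il1r2, 0.19 for Nlrp3, 0.12 for Il1rn, -0.10 for Il1f9 and -0.03 for Casp1, which in counts this sparse is a description. By pool, in the order sham, day 3, day 7 and day 14, rho was 0.31, 0.03, 0.34 and 0.43 for Nlrp3 and 0.34, 0.34, 0.08 and -0.14 for Il1r2.

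**Figure D5:**
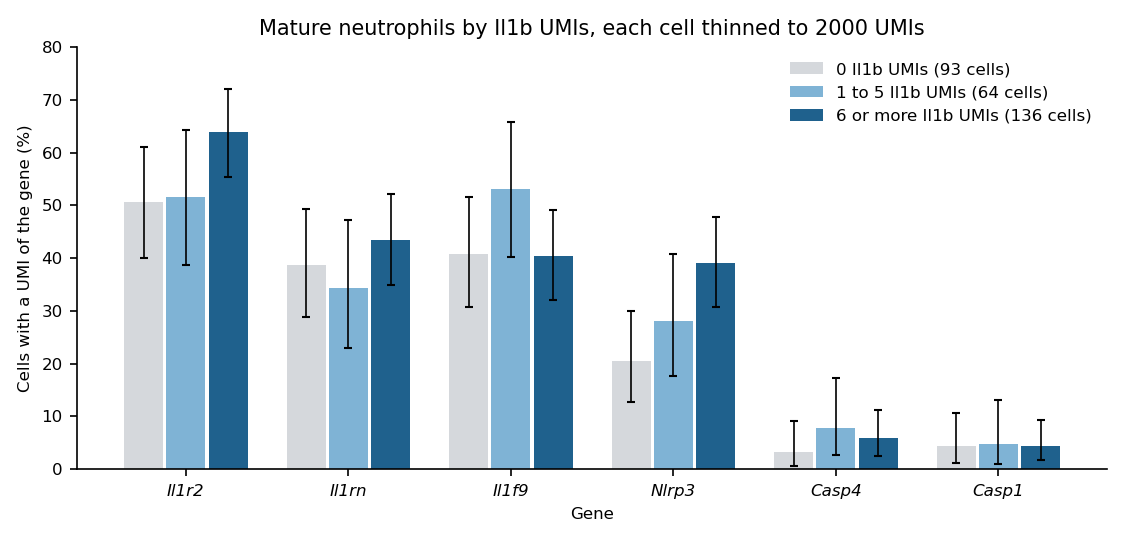
Share of mature neutrophils with a UMI of each gene (%), for cells with 0, 1 to 5 and 6 or more Il1b UMIs after thinning to 2000 UMIs; bars are shares and lines exact binomial 95% intervals. Over the 4 pools together, Nlrp3 was found in 20.4% of cells without Il1b and 39.0% of cells with 6 or more Il1b UMIs (28.9% and 35.2% on day 3), and Casp1 in 4.30% to 4.69% of every group.

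At full depth, 150 of 314 mature neutrophils held both Il1b and Il1rn (47.8%) and 125 held Il1b with both brakes (39.8%). The products of the separate shares were 49.6% and 40.9%, so neither set was more frequent than its product. A transcript set of ligand, sensor and caspase, Il1b with Nlrp3 and Casp1, was found in 16 of 314 mature neutrophils (5.10%, 2.94 to 8.14), 11 of 47 monocytes (23.4%, 12.3 to 38.0) and 5 of 28 macrophages (17.9%, 6.06 to 36.9). These shares follow depth, with median UMIs of 5362.5, 16683 and 12338.5 per cell. Thinned to 2000 UMIs, the set was found in 3 of 293 mature neutrophils (1.02%), 0 of 46 monocytes (0% to 7.71%) and 0 of 28 macrophages (0% to 12.3%). These counts are too low to show whether the order at full depth was kept. For this set at full depth, the product of the separate shares was 5.63% in mature neutrophils, 17.9% in monocytes and 7.58% in macrophages. In macrophages 0 of 28 cells held both Il1b and Il1rn (0% to 12.3%). Only 1 of these cells held any Il1rn, and the product of the shares was 2.04%, so this count cannot show whether the genes lay apart.

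The rest of the pathway was read from a list of 52 genes, 51 of them in the files. The signalling receptor gene Il1r1 had 0 UMIs in mature neutrophils (at most 1.94 CPM), monocytes and macrophages, and 45 of its UMIs lay in T cells (55.5 CPM, 40.5 to 74.3), in 10 of 99 cells. The IL-18 receptor genes Il18r1 and Il18rap were highest in NK cells (322 and 262 CPM). Pycard, which encodes the adaptor ASC that links NLRP3 to caspase-1, had 298 CPM in monocytes (262 to 336) and 251 CPM in NK cells, and its lowest level among the 12 lineages was in mature neutrophils (25.7 CPM, 19.0 to 34.0). Gsdmd, which encodes the pore protein that caspase-1 and caspase-11 cut, was more even, with 58.3 CPM in mature neutrophils and 56.7 in macrophages. Serine proteases known to cut IL-1 outside the inflammasome lay in the progenitors, at 9994 CPM for Elane and 8606 CPM for Prtn3, both used to gate that lineage. Serpinb1a, which encodes an inhibitor of such proteases, had 872 CPM in progenitors, 747 in immature and 149 in mature neutrophils.

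In mature neutrophils, 6 of 22 measured pathway genes were at least 1.5-fold higher on day 3 and 2 lower (background 16.9% and 8.88% of all genes). On day 7, 1 of 14 was higher and 3 lower (10.8% and 10.8%), and on day 14, 2 of 14 were higher and 2 lower (14.2% and 12.7%). With so few genes, these counts do not set the list apart from the background. The median log2 ratio over the list was 0.20, -0.0022 and -0.18 on the 3 days, against 0.04, -0.01 and -0.03 over all genes measured. On day 3 the higher genes were Ctss, Ctsc, Aim2, Pycard, Irak2 and Casp8, and the intervals of all but Ctss included 1. Ctss, a lysosomal cathepsin, stood at 3.48 (1.59 to 8.99), with 54.7% of its day 3 UMIs in 1 cell. Irak4, a kinase of the IL-1 receptor complex, was lower on day 3 (0.434, 0.232 to 0.821). Serpinb1a was lower on day 7 (0.632, 0.419 to 0.944), and Myd88 (0.531, 0.280 to 0.967) and Gsdmd (0.330, 0.109 to 0.846, 6 UMIs against 21 in sham) were lower on day 14.

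Over 21 sums of lineage and pool with at least 20 cells, from 7 lineages, the genes whose log2(CPM + 10) went most closely with Il1b were Pla2g7 (Pearson's r 0.99), Sirpb1b (0.97), Cd300ld (0.97), Sirpb1c (0.96), Clec4d (0.96) and Ptgs2 (0.96), among 6400 genes. The sums share libraries and lineages, Clec4d is a marker used to gate mature neutrophils, and r is a description. Among the other members r with Il1b was 0.94 for Nlrp3, 0.86 for Il1f9, 0.83 for Il1rn, 0.82 for Il1r2 and 0.21 for its genomic neighbour Il1a.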

How the data were processed

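Living CD45+ cells from 4 hashtagged pools were measured as 1 droplet library. The deposited matrices hold whole-number UMI counts per gene and barcode, written by Cell Ranger 3.1.0 per the file headers, on mm10 per the submitters' processing notes. The labels name different versions of the 10x 3′ kit in different fields, and which was used is not settled here. Gene counts did not differ between the matrices for any of 1556 barcodes (1 table of 15753747 UMIs). The rule by which barcodes were called cells is not stated.

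From these counts, 1359 barcodes with a single hashtag were kept if they had at least 200 genes and at most 10% mitochondrial UMIs. Barcodes with several hashtags (45) were left out as doublets, and no further doublet caller was run. A marker counted as on at 10% or more of the 90th percentile of its positive cells, and a cell took the lineage with the highest share of its markers on, at least 2. Cells without a clear lead, cells with at least 50% and 3 markers of another branch, and non-immune cells stayed unnamed (120). This scoring rule and the granule split (at least 2 of the 8 immature neutrophil markers on) were set after values had been seen, whereas the marker lists were fixed. At the border of mature and immature neutrophils, 19 and 25 cells had marker shares within 10 percentage points. Members, lists and rules were chosen with earlier results of these data known.

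UMIs were summed per lineage and pool and divided by the summed total (CPM). Poisson and Clopper-Pearson intervals are exact, ratios have conditional exact intervals, and a count of 0 stands for at most 3 counts where a bound is needed. Ratios were given for genes whose pools together reached 20 UMIs, and 1.5-fold was the limit for counting a gene. Named pathway genes passed 1.5-fold or reached 100 CPM in a lineage of at least 20 cells. The intervals were tried on simulated Poisson counts, which is the model behind them. That trial cannot show how they cover counts held unevenly between cells. Scripts used Python 3.11.15 with scipy 1.17.1, numpy 2.4.6, pandas 2.3.3 and matplotlib 3.10.9. Gene positions are from GENCODE vM21, which held 30934 of 31053 gene IDs. All 9 members matched the RefSeq promoter table. The values of 1 pathway gene are not reported here.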

Additional observations from a re-analysis of the deposited data

Results flagged for a closer look

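Barcodes outside the pools also held members of the set. The 45 barcodes with hashtags of several pools carried 639 Il1b, 82 Il1r2, 49 Il1rn, 49 Nlrp3, 36 Casp4, 30 Il1f9, 20 Casp1 and 4 Il18 UMIs, above the 3 UMIs that a count of 0 allows. The 152 barcodes whose leading hashtag had too few UMIs carried 4 Il1b UMIs in 102134 UMIs. None of these barcodes enters a comparison.

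Il1b on day 3 lay on opposite sides of sham in the granule stages of mature neutrophils. Its ratio to sham was 1.24 (1.14 to 1.34) in granule-low cells, where 1 cell held 12.9% of the day 3 UMIs. It was 0.745 (0.581 to 0.958) in granule-bearing cells, where 1 cell held 24.2% of the day 3 and another 24.1% of the sham UMIs. The difference between the stages was not tested, since each condition is 1 pool.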

How the results depend on the processing

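Of 424 recomputed values for 57 results, 386 stayed within the interval of the reported value, or within 1.5-fold for counts of genes. Of the rest, 36 moved outside and 2 reversed. Direction was checked only for ratios whose reported interval left out 1. With granule stages weighted alike, which was added after the data had been seen, the Il1b ratios to sham in mature neutrophils were 1.20 on day 3, 0.901 on day 7 and 0.979 on day 14. Without the 3 immature neutrophils that held 20 or more Il1b UMIs, also added after the data had been seen, immature neutrophils had 7.42 CPM of Il1b, and 836 Il1rn and 1052 Il1r2 UMIs per 100 Il1b UMIs. Without the highest cell of each pool, mature neutrophils held 89.1% of Il1b UMIs at 2968 CPM, and Il1r2 stood at 14.7 UMIs per 100 Il1b UMIs on day 3. Without the 50 most abundant genes in the totals, the Il1b level was 6218 CPM, because the totals are smaller, and 1 pathway gene was higher on day 14. Less thinning raised detection: among mature neutrophils with 6 or more Il1b UMIs, Il1rn was found in 61.4% at 4000 UMIs and 64.6% unthinned, Nlrp3 in 58.0% and 62.9%, and Il1r2 in 82.0% unthinned. With at least 50 UMIs, pathway genes higher on day 3 numbered 2 and lower 0, and 1 was lower on each of days 7 and 14. With at least 10 UMIs, 3 were higher and 5 lower on day 7. At 2-fold, 2 were higher and 1 lower on day 3, 0 higher and 0 lower on day 7, and 0 higher and 1 lower on day 14. Of the 6 genes most like Il1b, 3 and 4 were shared at pseudocounts of 1 and 50. No paired analysis was possible because each condition is 1 pool, and no replicate could be left out. Depth limits Casp1, Casp4, Il18 and Il1a most.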

Other observations

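Nlrp3 reached 290 CPM (211 to 387) in 11 basophils or mast cells, with 26.7% of its UMIs in 1 cell, while the same cells held 2 Il1b, 0 Il1a and 1 Il18 UMIs. The receptor gene Il1rl1, whose product binds interleukin 33, had 96.5 CPM (54.0 to 159) there, in 4 of the 11 cells. Over whole pools, Il1b stood at 254, 616, 450 and 538 CPM in sham and on days 3, 7 and 14, and Il1rn at 32.7, 62.6, 46.7 and 50.7 CPM. These sums hold both the number of neutrophils and the level per cell.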
